A study of Mus musculus with 16 samples.

Results

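The 35 genes described here belong to the NF-kB and TNF pathway, and they were taken by name from a fixed list out of the 50686 gene identifiers counted in every library. They comprise 8 canonical subunits and inhibitors, 7 genes of the noncanonical arm, 7 kinase and TNF receptor complex genes, 6 ligand and receptor genes, and 7 feedback and survival targets. RNA sequencing was done on mouse pro-B cell lines from C57BL/6N bone marrow transformed by a retrovirus carrying BCR-ABL1p185, the fusion kinase of Philadelphia-positive B cell leukaemia. There were 4 wild-type lines, in which the floxed Cdk8 gene is intact, and 4 Cdk8-ko lines, in which Vav-Cre, a recombinase active in haematopoietic cells, had removed it. Each line was derived individually and was sequenced after 48 h in 0.01% DMSO (control) and after 48 h in 1 µM senexin B, an inhibitor of CDK8 and its relative CDK19, which gives 4 groups of 4 libraries. All 8 lines share the oncogene and are immortalized, so they model transformed cells only.

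NF-kB is a family of dimeric transcription factors held in the cytoplasm by inhibitory IkB proteins. In the canonical pathway, TNF or another signal activates the IKK kinase complex, which phosphorylates the inhibitors for degradation and releases dimers of p50 (encoded by Nfkb1), RelA or c-Rel. In the noncanonical pathway, receptors such as BAFF receptor and CD40 stabilize the kinase NIK, which drives processing of the Nfkb2 product to p52, the partner of RelB. Many of the targets, among them the IkB proteins and the ubiquitin editor A20, switch the pathway off again. CDK8, the kinase of the mediator kinase module, is known as a positive regulator of transcription from NF-kB target promoters.

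Library totals ran from 13145876 to 18349425 counts. Levels are given as CPM (counts scaled to the size of the library with TMM, a correction for library composition), and as TPM (per transcript length) where genes are compared with each other. Cdk8 itself was at 61.7 to 68.6 CPM in wild-type controls and 35.3 to 52.0 CPM in Cdk8-ko controls. With senexin B the Cdk8 ranges were 55.1 to 89.2 and 41.1 to 61.7 CPM and overlapped, and these whole-gene counts include exons outside the deleted part. Of 14 pro-B and pre-B markers, 13 had at least 10 counts in every library and the 14 together summed to between 6068 and 9909 CPM. Within that sum Rag1 ran from 1.22 to 123 CPM, Rag2 from 0.140 to 44.9 CPM and Dntt from 0.863 to 282 CPM between libraries. Summed markers of stroma (6 genes) and endothelium (4 genes) did not pass 2.20 and 0.687 CPM in any library. The 8 myeloid markers summed to 0.503 to 25.1 CPM, the highest in a Cdk8-ko control and nearly all of it Lyz2, which reached 24.6 CPM. The 7 T cell markers summed to 17.6 to 133 CPM, nearly all Lck, while Cd3e did not pass 0.0817 CPM. The 5 erythroid markers summed to 3.64 to 264 CPM, nearly all the globin Hbb-bt, and the 6 mature B markers to 46.2 to 304 CPM. The part of these varying markers in the values that follow was not tested.

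Per transcript length the pathway was led by a receptor, an adaptor and a subunit. Tnfrsf13b, which encodes TACI, a receptor for BAFF and APRIL, had a median of 204 TPM over the 16 libraries (156 to 245 TPM). Tab2, the adaptor that brings the kinase TAK1 to ubiquitin chains, had a median of 148 TPM, and Rela 124 TPM. Next came the inhibitors Nfkbia and Nfkbib with medians of 65.2 and 51.5 TPM, whose ranges overlapped. Map3k7, which encodes TAK1 itself, had a median of 50.5 TPM and Nfkb1 one of 39.9 TPM. Tnf, the ligand, was transcribed by these cells at a median of 39.0 TPM, with a range of 16.7 to 75.9 TPM that overlapped the ranges of Tnfrsf1b, Tnfrsf13c, Chuk, Rel and Nfkb1. Among the subunits, Relb was lowest at 5.55 TPM.

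Of the 35 genes, 31 had a median of at least 1 TPM and 4 were under it. The receptor for TNF was nearly all of one kind. Tnfrsf1b, which encodes TNFR2, had a median of 39.2 TPM, whereas Tnfrsf1a, which encodes the ubiquitous TNFR1, had 0 counts in 11 of 16 libraries. A count of 0 allows up to 3 counts, or 0.163 to 0.228 CPM depending on the library, by counting error only. The counts of Tnfrsf1a above 0 were 11 and 18 in wild-type line 1 (control and senexin B), 3 in the control of Cdk8-ko line 2, and 6 and 1 with senexin B in Cdk8-ko lines 1 and 3. The 3 other genes under 1 TPM were Cd40 (median 0.517 TPM), Traf1 (0.0722 TPM) and Bcl3 (0.908 TPM). Traf1 and Tnfrsf1a were too low to be tested in any comparison, so that 33 of the 35 genes entered at least one.

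**Figure D1:**
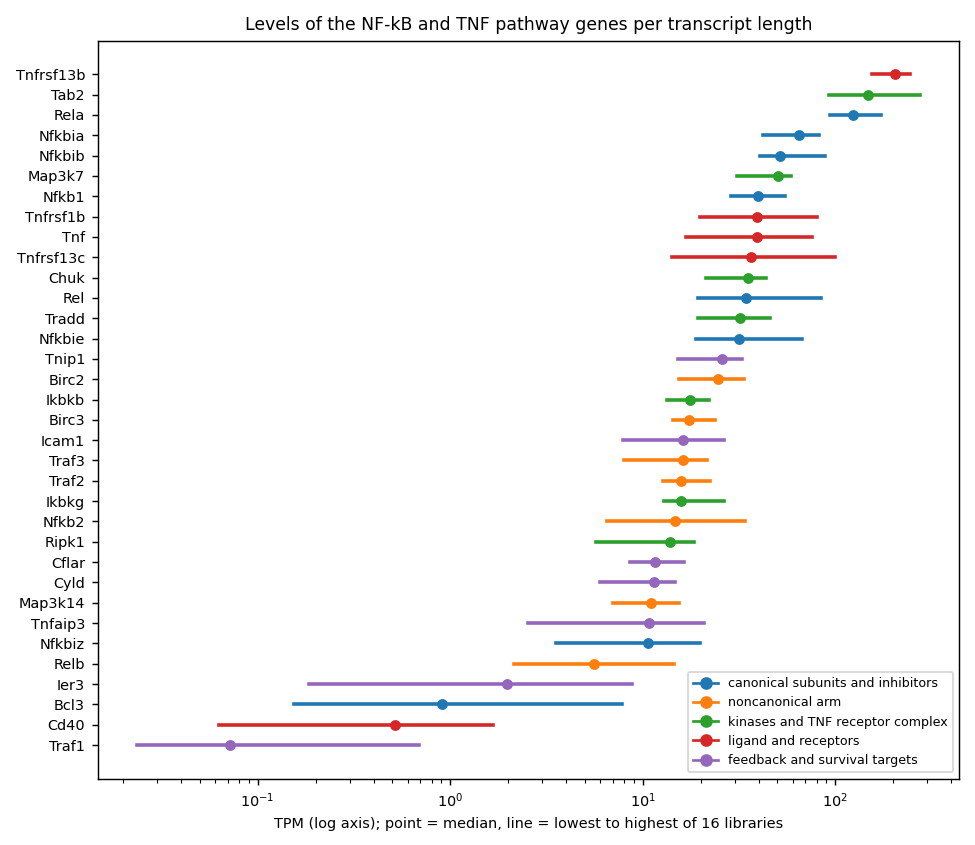
TPM of 34 of the 35 genes on a log axis, with the median of 16 libraries as a point, the lowest to highest library as a line, and colours for the 5 groups of genes. Tnfrsf1a is left out because its median is 0, Tnfrsf13b stands highest with a median of 204 TPM, and the 4 lowest genes shown vary most between libraries.

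The first question was whether the pathway differed between Cdk8-ko and wild-type lines without inhibitor. It did so for none of its genes past the study's limits, an adjusted p under 0.05 and more than 2-fold. By edgeR's quasi-likelihood test 0 of 32 genes tested were called, beside 0.00759% of all 13174 genes tested, and DESeq2 also called 0. At an unadjusted p under 0.05, 2 of the 32 were listed, Rel and Bcl3, or 6.25% beside 5.32% of all genes. The median log2 fold change was -0.12, with 22 genes below 0 and 10 above, where the median of all genes was 0.00. Below 0 were 6 of 8 canonical subunits and inhibitors, 5 of 7 noncanonical genes, 6 of 7 kinase and receptor complex genes, 2 of 4 ligand and receptor genes tested and 3 of 6 feedback and survival targets tested.

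Rel encodes c-Rel, the subunit most typical of lymphocytes (chromosome 11, 23736847 to 23770970, minus strand, GRCm38). Its level in the wild-type control lines 1 to 4 was 157, 123, 98.9 and 211 CPM. In the Cdk8-ko controls it was 86.8, 81.5, 87.3 and 86.1 CPM. Every Cdk8-ko line was thus below every wild-type line, and the Cdk8-ko lines differed little among themselves (85.4 ± 2.69 CPM, SD, n = 4) where the wild-type lines were scattered (147 ± 48.5 CPM, SD, n = 4). The log2 fold change was -0.78 ± 0.21 (SE), with an unadjusted p of 0.00588 and an adjusted p of 0.897 by edgeR. The two-sided exact permutation test gave p = 0.0286, the smallest that 4 against 4 lines allow, which any gene without overlap between the groups reaches. Rel was the 1 gene of 32 (3.12%) with all Cdk8-ko lines lower, beside 1.66% of all genes, and 0 of 32 had all Cdk8-ko lines higher, beside 1.48% of all genes.

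Bcl3, a nuclear IkB-like cofactor of p50 and p52 homodimers, stood at 0.577, 6.41, 5.36 and 1.33 CPM in the wild-type controls and at 1.31, 0.688, 0.317 and 0.221 CPM in the Cdk8-ko controls. Wild-type lines 2 and 3 were far above the rest and line 1 lay within the Cdk8-ko range, so the groups overlapped. Its log2 fold change was -2.41 ± 0.85 (SE), with an unadjusted p of 0.0209 and an adjusted p of 0.897 by edgeR. The Cdk8-ko controls held only 3 to 21 counts of it per library, and an antisense transcript shares 6.51% of its exon bases, which counting without strand cannot separate.

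The 3 further genes with the smallest p-values were all lower in the Cdk8-ko lines and overlapped between groups. Tab2 was at 432, 320, 312 and 387 CPM in wild-type controls and 300.4, 277, 320.0 and 274 CPM in Cdk8-ko controls (log2 fold change -0.31 ± 0.13 SE, unadjusted p 0.0507, adjusted p 0.897 by edgeR). Rela, the main activating subunit, was at 107, 155, 146 and 151 CPM against 133, 94.5, 115 and 103 CPM, with wild-type line 1 at the level of the Cdk8-ko lines. Its log2 fold change was -0.33 ± 0.16 (SE) and that of Nfkbib, which encodes IkB-beta, -0.49 ± 0.23 (SE), each with an adjusted p of 0.897 by edgeR. Nfkbib was at 29.9, 63.3, 55.0 and 50.3 CPM in wild-type controls and 31.5 to 41.8 CPM in Cdk8-ko controls, with line 1 again the lowest wild-type line. Opposite-strand genes share 14.5% and 1.94% of its exon bases.

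**Figure D2:**
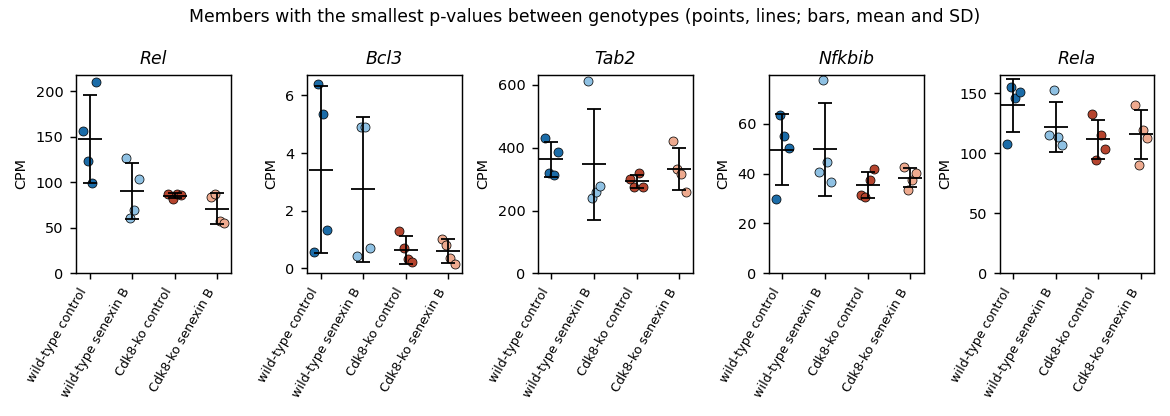
CPM of the 5 genes with the smallest p-values between genotypes, with a point per line, and the mean and SD as bars, in each of the 4 groups. Rel is the 1 gene whose control groups do not overlap, and with senexin B its wild-type lines (61.3 to 127 CPM) overlap the Cdk8-ko lines (55.6 to 86.7 CPM).

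With senexin B present in both genotypes, edgeR called 0 of 33 genes tested, beside 0% of all 13010 genes, and DESeq2 called 0. Bcl3 alone fell under an unadjusted p of 0.05, or 3.03% beside 1.55% of all genes. It stood at 0.431, 4.90, 4.92 and 0.692 CPM in wild-type lines and at 1.03, 0.824, 0.364 and 0.139 CPM in Cdk8-ko lines, again with lines 2 and 3 of the wild-type on top and overlap elsewhere (log2 fold change -2.19 ± 0.90 SE, adjusted p 0.9997 by edgeR). No gene of the 33 had all Cdk8-ko lines lower (0.453% of all genes) or all higher (0.546% of all genes). The median log2 fold change of the genes was -0.06, with 20 below 0 and 13 above.

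Next in order of p-value were Birc3, Tnfrsf13c, Nfkbib and Ikbkb, with adjusted p-values of 0.9997 by edgeR. Birc3, which encodes the ubiquitin ligase cIAP2, differed by a log2 fold change of -0.24 ± 0.15 (SE). For Tnfrsf13c, which encodes BAFF receptor, the value was 0.69 ± 0.45 (SE), for Nfkbib -0.37 ± 0.25 (SE), and for Ikbkb, a catalytic IKK subunit, 0.22 ± 0.15 (SE). The difference of Rel was smaller here than in the controls, at -0.35 ± 0.27 (SE).

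The second question was whether senexin B altered the pathway within a genotype. In wild-type lines edgeR called 0 of 31 genes tested, beside 0% of all 12989 genes, and DESeq2 called 0. At an unadjusted p under 0.05 there were 3 of 31 (Icam1, Nfkb1 and Rel, 9.68%), all lower, beside 3.8% of all genes. Since the control and senexin B libraries of a line vary together, the fit with the line as a replicate block is given beside it. It also called 0 of the 31, beside 0.346% of all genes, but put 7 of them at an unadjusted p under 0.05, or 22.6% beside 10.3% of all genes. These were Icam1, Rel, Tnfrsf1b, Tnf, Tnfrsf13c, Tnip1 and Nfkb1, all lower with senexin B, and their adjusted p-values in the block fit of edgeR ran from 0.139 to 0.474. The median log2 fold change over the 31 was -0.09 without the block and -0.12 with it, where all genes had medians of 0.02 and 0.01.

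In Cdk8-ko lines edgeR called 0 of 33 genes, beside 0% of all 13285 genes, and DESeq2 called 0. Icam1 was the only gene with an unadjusted p under 0.05, or 3.03% beside 1.83% of all genes. With the replicate block 0 of 33 were called, beside 0.0527% of all genes, and Icam1 and Tnfrsf13c had unadjusted p-values under 0.05, or 6.06% beside 10.3% of all genes. The median log2 fold change was -0.05, with 17 genes below 0 and 16 above.

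Counted by line, 7 of the 31 genes (22.6%) were lower with senexin B in all 4 wild-type lines, beside 9.46% of all genes: Nfkb1, Rel, Nfkbiz, Bcl3, Tnfrsf1b, Tnip1 and Icam1. Map3k14 (NIK) and Tnfrsf13b were higher in all 4, or 6.45% beside 8.38% of all genes. In the Cdk8-ko lines 6 of 33 (18.2%) were lower in all 4 lines, beside 10.3% of all genes, namely Nfkb1, Birc3, Ikbkg, Tnfrsf13c, Icam1 and Cyld. Ikbkb and Cd40 were higher in all 4, or 6.06% beside 8.89% of all genes, but Cd40 rested on only 1 to 29 counts per library there. Lower in all 8 lines were 2 genes, Icam1 and Nfkb1, or 6.06% of 33 beside 2.59% of all genes, and 0 of 33 were higher in all 8 lines, beside 1.96% of all genes.

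**Figure D3:**
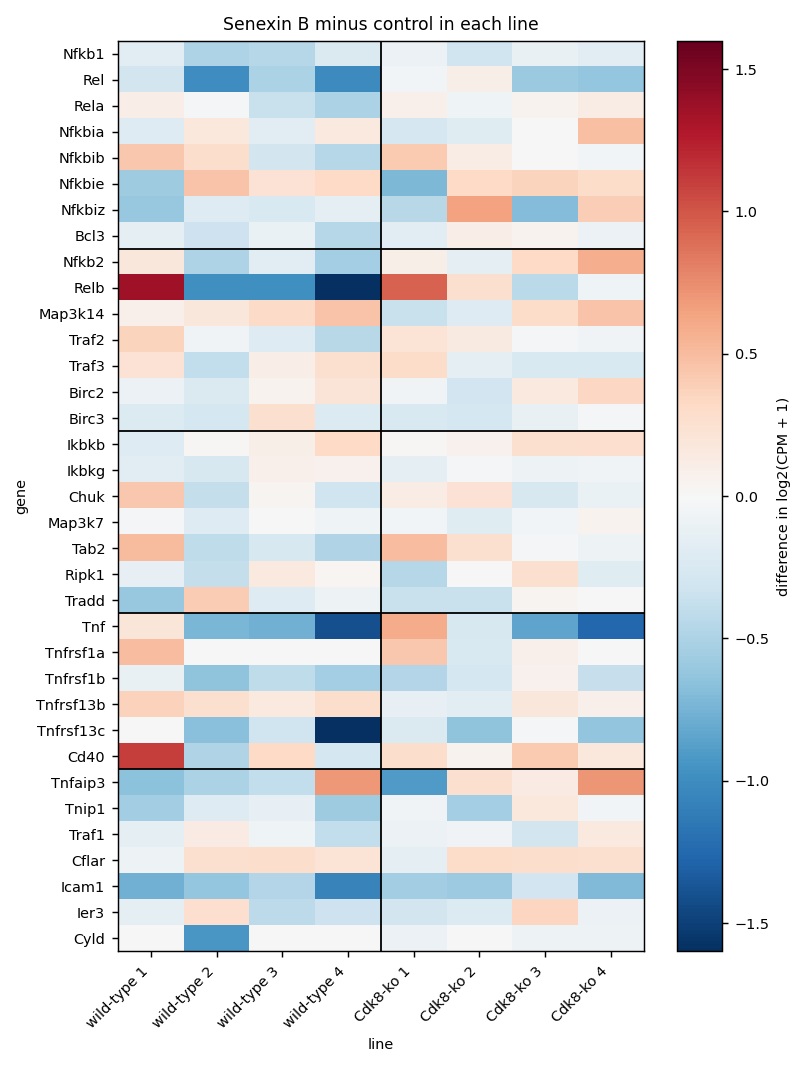
Difference in log2(CPM + 1) between the senexin B and the control library of each line, for all 35 genes in rows by group and the 8 lines in columns, with blue for lower and red for higher. The row of Icam1 is blue throughout, from -1.07 to -0.31, and the rows of Relb, Tab2 and Tnf are red in line 1 of both genotypes.

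Icam1 had the smallest p-value of the pathway with senexin B in either genotype. It encodes the adhesion ligand of the integrin LFA-1 and is a standard NF-kB target (chromosome 9, 21015985 to 21028817, plus strand, GRCm38). In wild-type lines 1 to 4 it was at 29.2, 38.3, 30.9 and 27.9 CPM without senexin B and at 16.8, 24.5, 22.1 and 12.8 CPM with it. In the Cdk8-ko lines it was at 31.5, 34.7, 31.6 and 23.2 CPM without it and at 21.1, 22.8, 25.3 and 13.8 CPM with it. The wild-type groups did not overlap, and the Cdk8-ko groups overlapped because the control of line 4 lay below the senexin B library of line 3. The share of all genes whose wild-type control and senexin B groups do not overlap, as here and for Nfkb1 below, was not worked out. The control levels of Icam1 in the genotypes lay together, at 31.6 ± 4.68 and 30.2 ± 4.95 CPM (SD, n = 4 each).

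The log2 fold change of Icam1 with senexin B was -0.72 ± 0.23 (SE) in wild-type lines (unadjusted p 0.0129, adjusted p 0.9998 by edgeR) and -0.54 ± 0.22 (SE) in Cdk8-ko lines (unadjusted p 0.0354). With the replicate block the adjusted p-values by edgeR were 0.139 and 0.190. Over all 8 lines in one fit, a comparison added after the data had been seen, the log2 fold change with the line as block was -0.66 ± 0.09 (SE), with an unadjusted p of 1.54e-05 and an adjusted p of 0.00653 by edgeR. Icam1 was the 1 gene of 33 (3.03%) past the adjusted p limit there, beside 2.63% of all 14164 genes, but it stayed under the 2-fold limit. Past both limits were 0 of 33, beside 0.946% of all genes, and without the block 0 of 33, beside 0% of all genes. Without the block its adjusted p was 0.532, and with the block it kept to the same side of the 0.05 limit whichever line was left out. The two-sided exact permutation test over the signs of the 8 differences gave p = 0.00781, the smallest that 8 lines allow, which any gene lower in all 8 lines reaches. This test and the fit over all lines take the 8 differences as independent, while lines of the same number in the 2 genotypes had correlated responses, as given further on. With 4 numbers in place of 8 lines the smallest p of the exact test would be 0.125. An opposite-strand gene, Gm47079, shares 11.7% of the exon bases of Icam1, which counting without strand cannot separate.

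Nfkb1 encodes p105, the precursor of p50, and was lower in every line by a smaller amount (chromosome 3, 135584655 to 135691547, minus strand, GRCm38). In wild-type lines it was at 162, 218, 184 and 176 CPM without and at 144, 155, 134 and 149 CPM with senexin B, and these groups did not overlap. In Cdk8-ko lines it was at 181, 153, 181 and 199 CPM without and at 169, 123, 167 and 175 CPM with senexin B, where line 2 was the lowest in both states. Its log2 fold change was -0.34 ± 0.14 (SE) in wild-type and -0.17 ± 0.14 (SE) in Cdk8-ko lines. Over all 8 lines with the block it was -0.26 ± 0.07 (SE), with an adjusted p of 0.0920 by edgeR. The two-sided exact permutation test over signs gave p = 0.00781, as it does for any gene lower in all 8 lines (2.59% of all genes). Both tests take the 8 differences as independent, with the limit given for Icam1. Rel was lower in 7 of 8 lines. With senexin B it was at 127, 61.3, 69.6 and 104 CPM in wild-type lines and at 84.3, 86.7, 57.4 and 55.6 CPM in Cdk8-ko lines, where line 2 was the exception. Its log2 fold change was -0.69 ± 0.31 (SE) in wild-type and -0.27 ± 0.17 (SE) in Cdk8-ko lines, and over all 8 lines with the block -0.50 ± 0.13 (SE) with an adjusted p of 0.0595 by edgeR.

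Over all 8 lines with the block, unadjusted p-values under 0.05 were given to 8 of the 33 genes (24.2%), beside 16.4% of all genes. These were Icam1, Rel, Tnfrsf1b, Nfkb1, Tnfrsf13c, Tnf and Tnip1, all lower, and Cflar, which was higher. Tnip1 encodes ABIN-1, a partner of A20. In the wild-type lines it was at 30.3, 36.1, 32.2 and 38.8 CPM without and 20.3, 31.2, 29.2 and 25.9 CPM with senexin B. In Cdk8-ko lines it was at 28.4 to 34.8 CPM without and 19.1 to 33.7 CPM with senexin B. The groups overlapped in both genotypes. Its log2 fold change was -0.36 ± 0.18 (SE) in wild-type lines and over all lines with the block -0.25 ± 0.10 (SE, adjusted p 0.243 by edgeR). Cflar encodes c-FLIP, the inhibitor of caspase 8 activation at death receptors, and was higher in lines 2, 3 and 4 and lower in line 1 of both genotypes (log2 fold change 0.17 ± 0.08 SE, adjusted p 0.297 by edgeR).

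**Figure D4:**
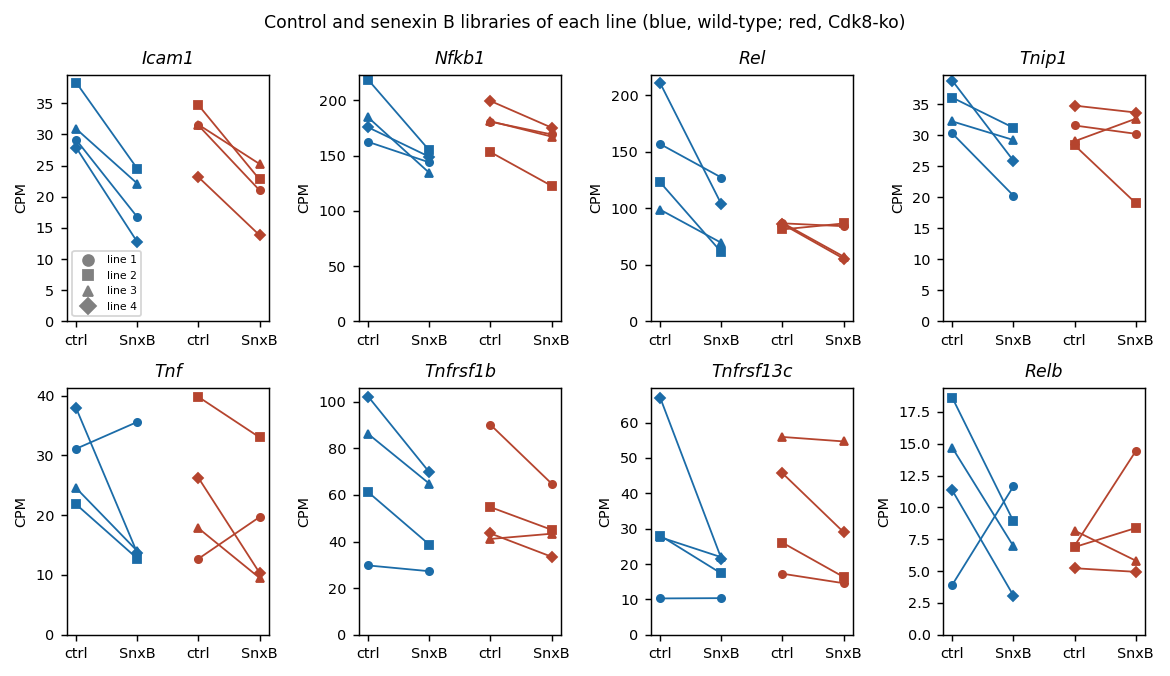
CPM of 8 genes in the control (ctrl) and senexin B (SnxB) library of each line, joined by a line, with wild-type in blue, Cdk8-ko in red and a symbol for each line number. All 8 joined lines of Icam1 and Nfkb1 slope down, while for Tnf and Relb line 1 (circles) slopes up in both genotypes.

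The bases before the RefSeq start (GRCm38.p6) are shown for Icam1, which was lower with senexin B in all 8 lines, and for Rel and Tnip1, each lower in 7 of 8. They were picked because their windows hold a match. Birc3, Tnfrsf1b and Tnfrsf13c were also lower in 7 of 8 lines, and their windows held none. Nfkb1, the other gene lower in all 8 lines, had no promoter entry and was not searched. Capitals mark matches to the consensus kappaB motif or to the shorter palindrome GGAANNTCC, on either strand. The Icam1 window is chr9:21015690-21015939, plus strand, that of Rel chr11:23770970-23771219, minus strand, and that of Tnip1 chr11:54962941-54963190, minus strand, each of 250 bases.
Icam1: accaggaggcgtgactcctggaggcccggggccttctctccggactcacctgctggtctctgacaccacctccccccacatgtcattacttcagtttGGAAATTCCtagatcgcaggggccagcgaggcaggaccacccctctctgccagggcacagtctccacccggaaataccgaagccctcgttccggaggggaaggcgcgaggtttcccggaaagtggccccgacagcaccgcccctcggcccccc
Rel: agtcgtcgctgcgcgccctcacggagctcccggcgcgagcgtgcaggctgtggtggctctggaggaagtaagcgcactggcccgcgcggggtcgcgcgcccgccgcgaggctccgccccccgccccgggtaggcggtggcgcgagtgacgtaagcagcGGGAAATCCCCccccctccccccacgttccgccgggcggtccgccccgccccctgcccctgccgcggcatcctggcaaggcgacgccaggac
Tnip1: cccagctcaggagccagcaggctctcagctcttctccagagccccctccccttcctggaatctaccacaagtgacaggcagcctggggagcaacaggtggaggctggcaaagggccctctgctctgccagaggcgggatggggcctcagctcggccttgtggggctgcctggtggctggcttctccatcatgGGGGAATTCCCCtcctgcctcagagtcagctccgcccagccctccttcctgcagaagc
In the 300-base windows the match of Icam1 began 153 bases before the start and fitted GGAANNTCC alone. In Rel overlapping matches to the consensus motif began 92 and 91 bases before the start, and in Tnip1 58, 57 and 56 bases before it. The consensus motif was found in 2779 of 32851 promoters in the table (8.46%) and GGAANNTCC in 1399 (4.26%), and 666 held both. Of the 35 genes, 29 had 38 promoter entries. Of these, 13 (34.2%) held the consensus motif and 10 (26.3%) GGAANNTCC, in a list that includes many known targets. Tnf, with a match to GGAANNTCC 212 bases before its start, differed by less than its spread across lines, and the Nfkbia window held matches to both while its level did not move in one direction. A match is a description of these letters and not of binding.

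Among the ligand and receptors, Tnf was at 31.1, 21.8, 24.5 and 37.9 CPM in wild-type controls and at 35.6, 12.8, 14.0 and 13.7 CPM with senexin B. In Cdk8-ko lines it went from 12.7, 39.8, 17.8 and 26.3 CPM to 19.7, 33.0, 9.52 and 10.4 CPM. Lines 2, 3 and 4 were lower with senexin B and line 1 was higher in both genotypes, which left the groups overlapping. The log2 fold change over all 8 lines with the block was -0.59 ± 0.22 (SE), with an adjusted p of 0.196 by edgeR. Tnfrsf1b was lower in all 4 wild-type lines and in 3 of 4 Cdk8-ko lines. It went from 29.7, 61.2, 86.1 and 102 CPM to 27.3, 38.7, 64.8 and 69.7 CPM in wild-type lines, and the spread between lines exceeded the difference within them. Over all 8 lines its log2 fold change with the block was -0.35 ± 0.09 (SE, adjusted p 0.0639 by edgeR).

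The receptors for BAFF among the listed genes were Tnfrsf13c and Tnfrsf13b. Tnfrsf13c was at 10.3, 28.0, 27.6 and 67.0 CPM in wild-type controls and 10.4, 17.3, 21.9 and 21.5 CPM with senexin B, with the largest step in line 4 and none in line 1. In Cdk8-ko lines it was at 17.3, 26.0, 55.9 and 45.7 CPM and at 14.6, 16.3, 54.7 and 29.0 CPM. All 4 Cdk8-ko lines were lower, and the log2 fold change over all lines with the block was -0.53 ± 0.16 (SE, adjusted p 0.112 by edgeR). Tnfrsf13b went from 186, 190.0, 165 and 190.0 CPM to 240.2, 228, 183 and 232 CPM in wild-type lines, and from 212, 177, 204 and 237 CPM to 192, 155, 231 and 252 CPM in Cdk8-ko lines. It was higher in all 4 wild-type lines (log2 fold change 0.28 ± 0.14 SE, adjusted p 0.9998 by edgeR), and in the Cdk8-ko lines 2 were higher and 2 lower. Cd40 was near its detection limit, with 1 to 32 counts per library, and its control levels of 0.404, 0.629, 1.18 and 0.490 CPM in wild-type and 0.249, 1.81, 0.698 and 0.0735 CPM in Cdk8-ko lines do not bear a comparison.

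Responses were also compared by line number. Across the 33 genes tested, the differences between senexin B and control in wild-type line 1 and Cdk8-ko line 1 had a correlation of 0.81, while wild-type line 1 had correlations of -0.23, -0.08 and -0.30 with wild-type lines 2, 3 and 4. Over all 14164 genes the corresponding values were 0.62 and -0.07, -0.14 and -0.16. Lines with the same number had correlations over all genes of 0.10 to 0.62, beside -0.16 to 0.64 for lines of the same genotype and -0.26 to 0.51 for lines that shared neither. Across the 33 genes the same-number correlations were 0.81, 0.08, 0.58 and 0.71 for lines 1 to 4, so that line 2 did not share the pattern. These are descriptions across genes, which are not independent, and each difference comes from its own pair of libraries. The labels do not say what a number shares across genotypes, so that a shared culture or library batch and the response of a line cannot be told apart.

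Relb, the noncanonical partner of p52, was higher in line 1 of both genotypes. It went from 3.93 to 11.7 CPM in wild-type line 1 and from 6.98 to 14.4 CPM in Cdk8-ko line 1. In wild-type lines 2, 3 and 4 it went from 18.6, 14.7 and 11.3 CPM to 8.91, 6.95 and 3.07 CPM, and in Cdk8-ko lines 2, 3 and 4 from 6.88, 8.18 and 5.22 CPM to 8.38, 5.82 and 4.94 CPM. Only the wild-type lines 2 to 4 thus showed large steps down. Tab2 was also higher in line 1 of both genotypes, going from 432 to 611 CPM in wild-type line 1 and from 300.4 to 423 CPM in Cdk8-ko line 1, but from 320, 312 and 387 CPM to 241, 261 and 278 CPM in wild-type lines 2 to 4. In Cdk8-ko lines 2, 3 and 4 it went from 277, 320.0 and 274 CPM to 331, 315 and 259 CPM, which is higher in line 2 and nearly level in lines 3 and 4.

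Without wild-type line 1, a setting chosen after the data had been seen, the block fit of edgeR called 2 of 32 genes (6.25%) with senexin B in wild-type lines, beside 4.15% of all genes. They were Relb, with a log2 fold change of -1.30 ± 0.22 (SE, adjusted p 0.00701), and Tnf, with -1.02 ± 0.19 (SE, adjusted p 0.0107). Rel, Icam1 and Tnfrsf13c also passed the adjusted p limit there, with edgeR adjusted p-values of 0.0143, 0.0308 and 0.0462, and stayed under 2-fold. Past the adjusted p limit alone were thus 5 of 32 genes, beside 1015 of all 12976 genes tested. Leaving out wild-type line 2, 3 or 4 in its place gave 0 genes of the pathway, and 0, 9 and 28 genes in all against 538 without line 1. In Cdk8-ko lines 0 were called whichever line was left out. The control library of wild-type line 1 is also the one whose file header names another processing folder than the other 15, and its part in these values was not tested.

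None of the rest of the noncanonical arm was called in any comparison. Nfkb2 was at 12.6, 36.8, 21.8 and 16.9 CPM in wild-type controls and 21.2, 18.3, 12.3 and 7.35 CPM in Cdk8-ko controls. With senexin B it was at 14.5, 25.7, 19.4 and 11.3 CPM and at 22.7, 16.3, 15.6 and 11.5 CPM, so that all 4 groups overlapped. Its log2 fold change between control genotypes was -0.57 ± 0.41 (SE, adjusted p 0.913 by edgeR). Map3k14 was higher with senexin B in all 4 wild-type lines, going from 24.8, 24.1, 14.6 and 25.2 CPM to 26.2, 27.5, 18.2 and 34.97 CPM. Traf2 and Traf3, the adaptors that hold NIK down, and Birc2 and Birc3, the ligases they recruit, lay between 22.7 and 50.7 CPM in every control library. Birc3 was lower with senexin B in all 4 Cdk8-ko lines, at 30.4, 34.97, 30.9 and 26.6 CPM without and 25.4, 28.7, 28.4 and 26.1 CPM with it (log2 fold change -0.18 ± 0.13 SE, adjusted p 0.99998 by edgeR). In line 4 the difference was -0.02 on the log2 scale.

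Ikbkb, Ikbkg, Chuk and Map3k7 had mean log2 differences of -0.08 to 0.10 over the 8 lines. Ikbkb was higher in all 4 Cdk8-ko lines, at 104, 127, 124 and 116 CPM without and 105, 134, 147 and 139 CPM with senexin B, and in 3 of 4 wild-type lines. In the Cdk8-ko lines its log2 fold change was 0.16 ± 0.13 (SE, adjusted p 0.99998 by edgeR). Ripk1 and Tradd, the scaffold proteins of the TNF receptor complex, had mean differences of -0.09 and -0.14 and signs that varied by line, and a gene on the same strand shares 34.3% of the exon bases of Ripk1.

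Of the feedback and survival targets 0 were called with senexin B in either genotype. In the fit over all lines with the block 5 of the 6 tested were below 0, with a median log2 fold change of -0.20. In wild-type lines 4 of 5 were below 0 with and without the block, with medians of -0.22 and -0.28. In Cdk8-ko lines 5 of 6 were below 0 without the block and 4 of 6 with it, each with a median of -0.09. All genes had medians between -0.01 and 0.02 in these fits. Among the inhibitors, Nfkbia, which encodes IkB-alpha and is among the quickest NF-kB targets, was at 37.0, 36.6, 24.7 and 30.8 CPM in wild-type controls and at 32.0, 41.2, 21.9 and 34.5 CPM with senexin B. In Cdk8-ko lines it was at 44.5, 40.6, 41.0 and 33.5 CPM and at 36.6, 35.4, 41.2 and 47.1 CPM, and 4 of the 8 lines were lower and 4 higher. Tnfaip3, which encodes A20, was at 44.2, 30.4, 47.5 and 17.8 CPM in wild-type controls and 38.7, 39.7, 11.4 and 6.25 CPM in Cdk8-ko controls, with Cdk8-ko lines 3 and 4 below every other control line. With senexin B it was at 27.6, 21.1, 35.8 and 29.4 CPM and at 20.1, 47.7, 12.5 and 10.9 CPM. Line 1 was lower and line 4 higher in both genotypes. Nfkbiz, which encodes the inducible nuclear cofactor IkB-zeta, was lower in all 4 wild-type lines by 0.15 to 0.60 on the log2 scale and in 2 of 4 Cdk8-ko lines. Cyld, a deubiquitinase, was lower in all 4 Cdk8-ko lines by no more than 0.09 on the log2 scale.

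Whether senexin B acted differently in the genotypes was tested by the interaction over all 16 libraries, in a fit without the line as block. It called 0 of 33 genes, beside 0% of all genes, by edgeR, and 0 by DESeq2, and 0 of 33 had an unadjusted p under 0.05, beside 0.473% of all genes. A positive value here means that the log2 fold change with senexin B was higher in Cdk8-ko than in wild-type lines. For a gene lower in both genotypes, such as Icam1, Nfkb1 or Rel, that is a smaller decrease in Cdk8-ko lines. The interaction value was 0.19 ± 0.32 (SE) for Icam1, 0.18 ± 0.19 (SE) for Nfkb1 and 0.44 ± 0.36 (SE) for Rel, all with adjusted p-values of 0.9998 by edgeR. The 2 genes with the smallest p-values in this fit were Relb (0.96 ± 0.67 SE) and Tnfrsf13b (-0.27 ± 0.21 SE), and Rela (0.25 ± 0.24 SE) and Tnip1 (0.27 ± 0.26 SE) were next to Rel. With the line as block the errors were smaller, at 0.20 ± 0.19 (SE) for Icam1, 0.16 ± 0.14 (SE) for Nfkb1 and 0.41 ± 0.23 (SE) for Rel. The smallest p-values there were those of Nfkb2 (0.49 ± 0.24 SE) and Tnfrsf13b (-0.28 ± 0.15 SE), each with an adjusted p of 0.991 by edgeR. These errors do not show that the responses are alike. Without the block the median over the 33 genes was 0.12, with 25 above 0, where all genes had a median of 0.00.

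Other genes of the pathway, listed by name, gave a similar picture. Of 24 other pathway components, 24 were tested and 0 were called in any comparison, and in the controls 8 were above 0 and 16 below between genotypes, with Bcl10 the only one under an unadjusted p of 0.05 (-0.49 ± 0.20 SE), where 5.32% of all genes were. Of 34 other known NF-kB targets, 22 were tested, and 0 were called. Between control genotypes 2 of these 22 had an unadjusted p under 0.05, both lower, Plk2 (-1.50 ± 0.55 SE) and Kdm6b (-1.05 ± 0.44 SE), beside the same 5.32% of all genes. Over all 8 lines with the block, Lyn, a Src family kinase of B cells, was lower with senexin B by a log2 fold change of -0.43 ± 0.07 (SE, adjusted p 0.00989 by edgeR), a size under the 2-fold limit, and without the block its adjusted p was 0.786. Irf4 had the opposite sign (0.43 ± 0.12 SE, adjusted p 0.0893 by edgeR). Of 25 other TNF superfamily genes, 16 were tested in that fit and 0 were called, and Lta, the ligand next to Tnf, had the smallest p-value (log2 fold change -1.46 ± 0.39 SE, adjusted p 0.0874 by edgeR).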

How the data were processed

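RNA was measured in 16 libraries, 4 per group, grouped by their labels. Counts per gene were deposited by the authors, who trimmed reads with Trimmomatic, mapped them with STAR to GRCm38 and counted exons per gene on GENCODE M13 with featureCounts 1.5.1, with no strand option in the file headers. In 15 of 16 headers the input folder is named modified. Symbols were found for 50376 of the 50686 identifiers, all 35 genes included. The genes and lists were chosen with earlier results of these data known.

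The counts were tested in R 4.3.3 with edgeR 4.0.16 (TMM, filterByExpr by group, robust quasi-likelihood test, Benjamini-Hochberg adjustment) on the 8 libraries of the groups compared, or on all 16 for the interaction and the comparison over all lines. Calls needed an adjusted p under 0.05 and more than 2-fold. SE was derived from the fold change and its F statistic. Single values were tested by two-sided exact permutation of log2(CPM + 1). Genes were named by rule: those called or, where fewer than 5, the 5 with the smallest p in each comparison, those whose genotypes did not overlap, those moving one way in all 4 lines at an unadjusted p under 0.05, and Tnf, Nfkb1, Nfkb2, Nfkbia, Tnfaip3, Tnfrsf13c and Cd40. Other genes given by line were chosen after their values were seen.

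Line numbers come from the titles. Deviations from the group mean had correlations of 0.593 to 0.773 (wild-type) and 0.772 to 0.868 (Cdk8-ko) between control and senexin B libraries of the same number. These were treated as pairs in the fits with the block, the differences by line and the tests over signs. Fits not named as having the block took the libraries as unpaired. Between genotypes the same-number correlations were -0.154 to 0.273 in control and -0.136 to 0.412 with senexin B. These were paired only in the replicate block run as an alternative. Lines of a genotype were derived separately, so p-values of the unpaired genotype comparisons measure the spread between lines. The unpaired senexin B fits also use that spread and ignore the pairing. With the line as block, and in the tests over signs, senexin B p-values rest on how the differences within lines vary from line to line. Intervals and floors cover counting error only. DESeq2 1.42.0, other scaling and filters, and each library left out were run as alternatives. The fits were tested on simulated data. Figures were drawn in Python with matplotlib.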

Additional observations from a re-analysis of the deposited data

Results flagged for a closer look

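Among 33 genes in 4 groups of 4 libraries, 9 of 132 groups had a library far from the other 3 by Dixon's 95% limit, or 6.82%, where chance gives about 1 in 20. The gaps were at the top for Tab2 in wild-type senexin B (611 CPM, line 1), Tnf in wild-type senexin B (35.6 CPM, line 1), Tradd in Cdk8-ko control (24.3 CPM, line 1) and Cyld in wild-type control (61.4 CPM, line 2). They were at the bottom for Nfkb1 in Cdk8-ko senexin B (123 CPM, line 2), Map3k14 in wild-type control (14.6 CPM, line 3), Ripk1 in wild-type senexin B (17.5 CPM, line 2), Tnfrsf13b in wild-type control (165 CPM, line 3) and Cyld in wild-type senexin B (31.8 CPM, line 2). For Cyld the far library was the highest in control and the lowest with senexin B in the same line. No gene moved one way in all 4 wild-type lines and the other way in all 4 Cdk8-ko lines.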

How the results depend on the processing

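The count of genes called stayed at 0 in the 5 planned comparisons under RLE scaling, DESeq2, no filter, a minimum of 10 counts in every library, the replicate block, an adjusted p limit of 0.1, no fold limit, and one fit of all 16 libraries, which does not apply to the interaction. Summing the libraries of each line also gave 0 between genotypes. With single libraries or lines left out it ran from 0 to 2 with senexin B in wild-type lines and was 0 elsewhere. The median log2 fold change of the genes between genotypes with senexin B was -0.0274 with the replicate block and ran from -0.0691 to 0.0400 with single libraries left out. With senexin B it ran from -0.21 to -0.07 in wild-type and from -0.0685 to 0.0193 in Cdk8-ko lines (0.0178 in the block fit without line 1). Over all 8 lines with the replicate block 1 gene of 33 (3.03%) passed the adjusted p limit, beside 2.63% of all genes. Without the block the count was 0. With no filter it was 2 (Icam1 and Rel) and with DESeq2 5 (Icam1, Nfkb1, Rel, Tnfrsf13c and Tnfrsf1b). With single lines left out it ran from 1 to 2. Beside it, the count over all genes ran from 156 of 14359 (without wild-type line 3) to 430 of 14291 (without Cdk8-ko line 1). The shares of all genes with no filter and with DESeq2 were not worked out, so the counts under those settings have no background beside them. The cause of these changes was not tested. In the planned comparisons the replicate block changed no call among the 35 genes. The 5 genes with the smallest p-values in each comparison kept their sign there under every alternative run. Genes with values near 0 did not all do so, such as Tnfaip3 with senexin B in Cdk8-ko lines (-0.08 without and 0.03 with the replicate block). Depth limits Bcl3, Cd40, Traf1, Ier3 and Tnfrsf1a, which had fewer than 10 counts in some libraries.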
